A study of Mus musculus with 59 samples.

Results

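Transcripts of 9 genes that restrain the MAP kinase ERK were followed in mouse prefrontal cortex: the dual-specificity phosphatases Dusp1, Dusp4, Dusp5, Dusp6 and Dusp14, the Sprouty genes Spry2 and Spry4, and the Sprouty-related genes Spred1 and Spred2. They were taken by gene symbol from a deposited table of 18088 genes, and all 9 were found. The 59 mice, of strain C57BL/6J, were 30 heterozygous animals with 1 Dyrk1a I48X allele (Dyrk1a+/I48X) and 29 wild-type animals. Dyrk1a encodes a protein kinase, and every cell of a heterozygous animal carries the allele, so effects cannot be assigned to a cell type. Fluoxetine, lithium or vehicle reached the pups through maternal milk from postnatal day 3 to day 24, and cortex was taken at day 25. Females and males were sampled in each combination of genotype and drug. Heterozygous mice given fluoxetine, lithium or vehicle and wild-type mice given lithium or vehicle numbered 10 each (5 per sex), and wild-type mice given fluoxetine numbered 9 (5 females, 4 males). No litter is named in the labels, and littermates received the same drug from their dam, so the tests speak of the spread among animals and cannot set litter apart from drug.

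Growth factors and synaptic activity switch on the small GTPase Ras, which activates the kinases Raf, MEK and finally ERK, and ERK carries the signal to transcription factors. Many genes that ERK induces encode its own brakes. DUSP proteins remove the phosphates that activate ERK and related kinases, Sprouty proteins act between receptor tyrosine kinases and Raf, and SPRED proteins bind neurofibromin and hold Ras inactive. Several of these transcripts are immediate early or delayed early genes in neurons, and the Sprouty2 protein has been described as a substrate of the DYRK1A kinase.

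Each library held between 24391022 and 33842466 recovered counts. A gene-level sum does not tell mutant from normal transcript, and Dyrk1a was not lower on average in heterozygous vehicle mice: it averaged 2326 ± 65.9 normalised counts in heterozygous vehicle mice and 2232 ± 55.7 in wild-type vehicle mice (SD, n = 10 each). Markers of excitatory cortical neurons were present in all libraries, with a summed level of at least 75825 normalised counts over 10 genes. Markers of the neighbouring olfactory bulb varied widely: their summed level over 16 genes ran from 5226 to 64176 in heterozygous vehicle mice and from 5199 to 39999 in wild-type vehicle mice, and none of the 16 was at 0 in any library. Heterozygous fluoxetine males 3 and 4 stood apart with high glucocorticoid-induced genes (mean of 15 genes 1.38 and 0.45 log2 units above the average library). In tissue RNA, fewer cells of a type and less RNA per cell cannot be told apart.

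All 9 genes were well above the detection limit, with a lowest value of 132 normalised counts. Scaled to exon length, the median level over the 59 mice was 891 normalised counts per kilobase for Dusp14, an atypical phosphatase that lacks the MAP kinase docking domain of its relatives, and 818 for Spred1 and 646 for Spred2. Dusp6, a cytoplasmic phosphatase specific for ERK, had 565 and Spry2 had 424. Dusp1, a nuclear phosphatase of ERK, JNK and p38, had 179, the nuclear ERK phosphatase Dusp5 had 119, the nuclear phosphatase Dusp4 had 89.7, and Spry4 had 72.8. The 3 inducible nuclear phosphatases were also the most variable genes: the coefficient of variation over the 59 mice was 38.5% for Dusp4, 37.6% for Dusp5 and 31.1% for Dusp1. It was 21.0% for Dusp6 and between 11.4% and 14.4% for the other 5. In RefSeq's GRCm38.p6 annotation Dusp1 lies at chr17:26505591-26508472, Dusp4 at chr8:34807610-34819894, Dusp5 at chr19:53529145-53541809, Dusp6 at chr10:99263231-99267489 and Dusp14 at chr11:84048033-84069256. Spry2 lies at chr14:105891947-105896819, Spred1 at chr2:117121071-117182279 and Spred2 at chr11:19924442-20024026.

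Promoters are shown for Dusp1 and Dusp6, which fell together with fluoxetine, and for Dusp5, which was called between genotypes under vehicle. Each is 300 bases long on the gene's strand, 250 before to 50 after the RefSeq start (GRCm38.p6): chr17:26508423-26508722 on the minus strand for Dusp1, chr10:99262981-99263280 and chr19:53528895-53529194 on the plus strand for Dusp6 and Dusp5. Capitals mark a full cAMP response element, TGACGTCA, in Dusp1 and a pair of adjacent CArG boxes, the site type that binds serum response factor, in Dusp5.
Dusp1: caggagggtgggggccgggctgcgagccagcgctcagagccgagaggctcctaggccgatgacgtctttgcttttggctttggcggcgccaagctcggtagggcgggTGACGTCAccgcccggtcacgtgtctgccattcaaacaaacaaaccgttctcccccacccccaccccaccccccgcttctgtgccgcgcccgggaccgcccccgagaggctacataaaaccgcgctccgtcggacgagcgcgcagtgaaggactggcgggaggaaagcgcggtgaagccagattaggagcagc
Dusp6: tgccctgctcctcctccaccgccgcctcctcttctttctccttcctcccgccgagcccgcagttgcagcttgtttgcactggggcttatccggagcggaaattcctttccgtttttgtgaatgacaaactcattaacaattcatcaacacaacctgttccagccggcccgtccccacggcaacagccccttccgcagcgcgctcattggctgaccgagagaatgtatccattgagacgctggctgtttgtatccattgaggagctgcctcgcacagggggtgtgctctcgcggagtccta
Dusp5: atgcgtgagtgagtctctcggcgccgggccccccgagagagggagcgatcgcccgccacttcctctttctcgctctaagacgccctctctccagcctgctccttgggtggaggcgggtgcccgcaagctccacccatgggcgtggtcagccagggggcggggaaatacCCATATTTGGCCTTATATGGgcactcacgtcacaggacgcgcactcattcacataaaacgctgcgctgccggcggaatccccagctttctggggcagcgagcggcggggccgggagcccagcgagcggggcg
Of 32851 promoters of this length, 1.79% held TGACGTCA and 1.63% a CArG box, searched on both strands. Among the 7 members with a listed promoter, TGACGTCA was found in 1, with its first base at -143 from the start of Dusp1, and CArG boxes in 1, with first bases at -82 and -72 from the start of Dusp5. The core CGTCA, which the full element contains, occurred in Dusp1, Dusp5 and Spred2 (20.8% of all promoters), and the ETS core CCGGAA in Dusp14 and Spry2 (14.9%). The AP-1 site TGANTCA (7.81%), the EGR site GCGGGGGCG (2.91%) and the glucocorticoid element, AGAACA and TGTTCT with 3 bases between them (0.00913%), were in none of the 7. These are matches of letters and show no binding. Dusp4 and Spry4 have no listed promoter.

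The 9 genes did not vary as 1 block from mouse to mouse. After the mean of each of the 12 groups by genotype, drug and sex was removed, Dusp4 and Dusp5 varied together (Pearson r = 0.76 over 59 libraries), as did Dusp6 and Spry2 (r = 0.74) and Spred1 and Spred2 (r = 0.68). Dusp5 ran against Spred1 (r = -0.50), and Dusp4 against Dusp6 (r = -0.32). The libraries share depth and tissue makeup, so these r values describe the libraries and carry no test. Without heterozygous fluoxetine males 3 and 4, Dusp14 moved further from Dusp4 (r = -0.40 in place of -0.09) and closer to Dusp6 (0.43 in place of 0.18).

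**Figure D1:**
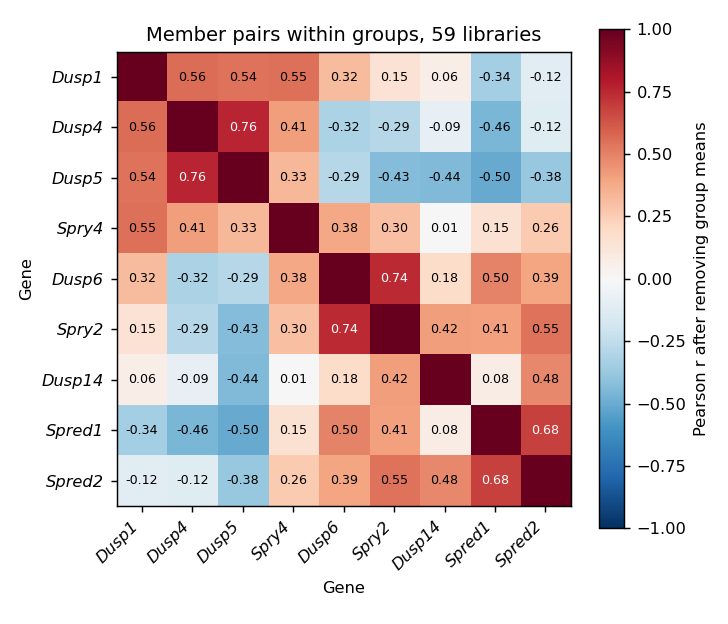
Pearson r between each pair of the 9 genes over 59 libraries, computed on log2(normalised count + 1) after the 12 group means were removed, from -1 (blue) to 1 (red). Dusp1, Dusp4, Dusp5 and Spry4 share positive values of 0.33 to 0.76, and Dusp6, Spry2, Spred1 and Spred2 share values of 0.39 to 0.74.

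The genes most like each member on the same within-group scale also differed. Dusp1 was nearest to Arc, an activity-induced synaptic protein gene (r = 0.91), to the nuclear receptor gene Nr4a1 (0.90) and to Junb (0.86). Dusp4 was nearest to Gem (0.87), Kdm6b (0.86) and Sik1 (0.86), and Dusp5 to Kdm6b (0.91), Dennd2a (0.91) and Tuba8 (0.90). For Dusp6 the nearest were Tnfrsf25 (0.79), Otud1 (0.77) and Spata2l (0.76), and for Dusp14 they were Tspan5 (0.87), Habp4 (0.86) and Plppr2 (0.86). Spry2 lay closest to Tmem151b (0.84), Nyap1 (0.83) and the clock gene Cry2 (0.82), whereas Spry4 had no gene above Midn (0.69), Pprc1 (0.66) and Per1 (0.61). Spred1 was nearest to Usp45 (0.82), Slmap (0.81) and Arl5a (0.81), and Spred2 to Ankrd33b (0.82), Fam53b (0.80) and Hivep3 (0.78).

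Fluoxetine, a serotonin reuptake inhibitor, was compared with vehicle to ask what the drug changed in each genotype. Averaged over both genotypes and sexes, Dusp1, Dusp6 and Spry4 fell, and the other 6 genes did not pass the test. That is 3 of 9, all lower, where 3.09% of all 17901 tested genes were called and 1.64% were lower. The median log2 fold change of the 9 was -0.12, and that of all genes 0.00. Changes are log2 fold changes of value + 1 from limma with their standard errors, and a gene was called at a Benjamini-Hochberg adjusted p under 0.05 over all genes.

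Dusp1 in heterozygous fluoxetine mice had a lowest value of 351, a median of 445 and a highest of 861 normalised counts, against 449.8, 877 and 1038 in heterozygous vehicle mice. In wild-type fluoxetine mice these were 389, 446 and 754, against 528, 704 and 899.7 in wild-type vehicle mice. The ranges overlapped in both genotypes, and 9 of 10 heterozygous and 8 of 9 wild-type fluoxetine mice lay below the vehicle mean of their sex. The fitted change was -0.57 ± 0.11 (limma adjusted p = 0.00204). Within genotypes, Dusp1 fell in heterozygous mice (-0.68 ± 0.16, limma adjusted p = 0.012), and the change in wild-type mice was -0.46 ± 0.16 (limma adjusted p = 0.135).

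Dusp6 ran from 1018 (median 1441, highest 1879) normalised counts in heterozygous fluoxetine mice, against a lowest of 1525, a median of 1929 and a highest of 2374 in heterozygous vehicle mice. In wild-type mice the fluoxetine values were 1302, 1547 and 1930.2, against 1724, 2024 and 2634 under vehicle. All 9 wild-type and 9 of 10 heterozygous fluoxetine mice lay below the vehicle mean of their sex, with overlapping ranges. Dusp6 changed by -0.43 ± 0.07 over both genotypes (limma adjusted p = 0.00035), by -0.41 ± 0.10 in heterozygous mice (limma adjusted p = 0.0191) and by -0.44 ± 0.11 in wild-type mice (limma adjusted p = 0.0372).

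Spry4 (chr18:38586247-38601347), the least abundant of the 9 per length, had a lowest value of 292, a median of 321 and a highest of 370.4 normalised counts in heterozygous fluoxetine mice, against 321, 364 and 412 in heterozygous vehicle mice. In wild-type mice it had 229, 323 and 392 under fluoxetine, against 366, 403 and 469 under vehicle. All 10 heterozygous and all 9 wild-type fluoxetine mice were below the vehicle mean of their sex, although the ranges overlapped. The change was -0.28 ± 0.06 (limma adjusted p = 0.00204), with -0.37 ± 0.08 in wild-type mice (limma adjusted p = 0.0194) and -0.19 ± 0.08 in heterozygous mice (limma adjusted p = 0.125).

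**Figure D2:**
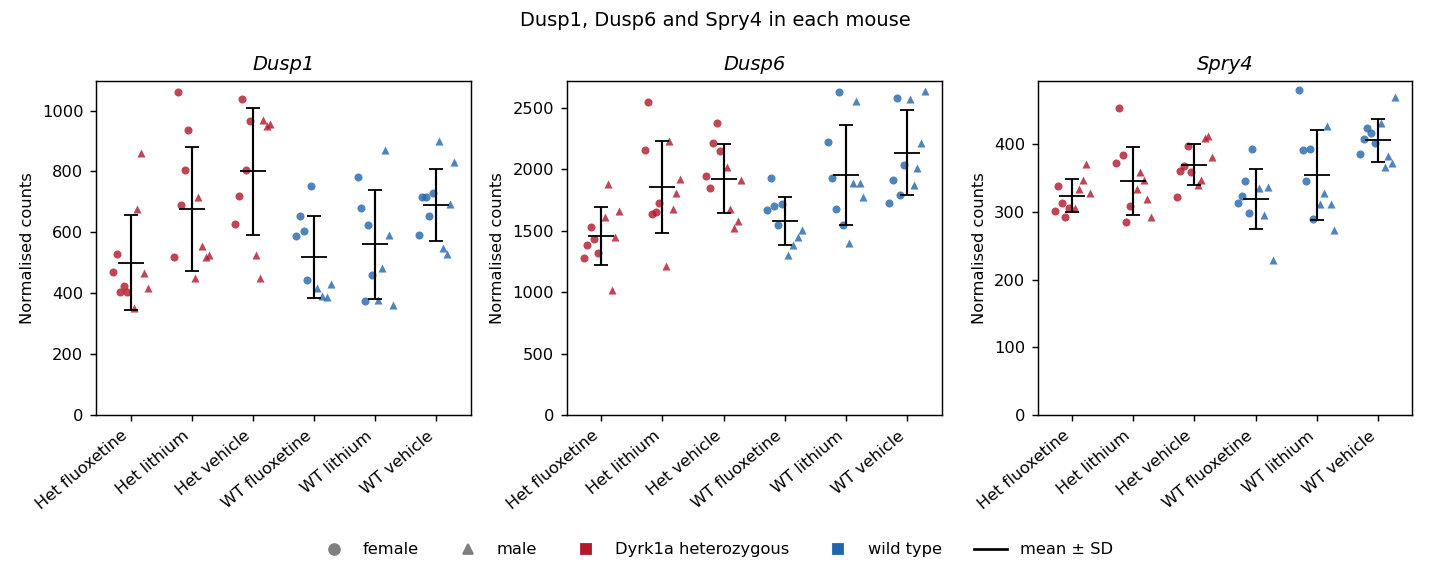
Normalised counts of Dusp1, Dusp6 and Spry4 in each of 59 mice, by genotype and drug, with bars for the mean ± SD of each group (n = 10, or 9 in wild-type fluoxetine mice). The fluoxetine means are 500.7 and 519.5 for Dusp1 in heterozygous and wild-type mice, 1455 and 1577 for Dusp6, and 323 and 318 for Spry4, each below the vehicle mean of its genotype.

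These 3 calls held under each of the 13 other settings tried and without each of the 39 libraries in turn, with Dusp1 between -0.70 and -0.53, Dusp6 between -0.45 and -0.30 and Spry4 between -0.30 and -0.25. After the mean of the olfactory bulb markers was added as a covariate, Dusp5 was called as well (-0.35, limma adjusted p = 0.0111, against -0.12 ± 0.14 and 0.675 without it). Spred1 (-0.16 ± 0.05, limma adjusted p = 0.0828) missed the threshold, and Dusp4 (0.13 ± 0.12), Dusp14 (-0.04 ± 0.05), Spry2 (-0.04 ± 0.05) and Spred2 (-0.04 ± 0.05) had adjusted p values of 0.567 to 0.714.

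Within single genotypes 2 members were called in each, Dusp1 and Dusp6 among heterozygous mice (4.27% of all genes called, 2.06% lower) and Dusp6 and Spry4 among wild-type mice (0.447%, 0.263% lower). The difference between the genotypes was tested directly, and limma called none of the 9 (0% of all genes called), with 0 by edgeR or DESeq2. At an unadjusted p under 0.05 there was 1 member, Dusp5 (-0.59 ± 0.29, limma adjusted p = 0.219), where 21.9% of all genes were. With array weights, which count deviating libraries less, limma called 3: Dusp5 (-0.90, adjusted p = 0.0129), Dusp4 (-0.47, 0.0495) and Spred1 (0.36, 0.011). The 0% is the share of all genes in the unweighted fit, and the share with array weights is not given. The heterozygous effect minus the wild-type effect had a 95% interval of -0.67 to 0.24 for Dusp1, -0.26 to 0.34 for Dusp6 and -0.05 to 0.40 for Spry4. In heterozygous mice Dusp6 lost its call without fluoxetine male 3 (-0.34, limma adjusted p = 0.068), without fluoxetine males 3 and 4 (-0.31, 0.2), and Dusp1 and Dusp6 both lost theirs when only the 2 compared groups per sex entered the fit, with the changes themselves the same (-0.68 ± 0.17, 0.204, and -0.41 ± 0.09, 0.125). In wild-type mice array weights called Dusp1 (-0.42, limma adjusted p = 0.0273) and Spred1 (-0.23, 0.0116). Both were also called there with only the groups compared (Dusp1 -0.46 ± 0.10, limma adjusted p = 0.0173, and Spred1 -0.25 ± 0.05, 0.0135). Spred1 was called without heterozygous fluoxetine males 3 and 4 as well (-0.25, limma adjusted p = 0.0486). In wild-type mice Dusp6 lost its call with the olfactory bulb covariate (-0.32, limma adjusted p = 0.225). No bulb marker was called there, but their median change was 1.63, and the bulb list mean was 0.76 to 1.31 in wild-type fluoxetine males and -2.37 to -0.54 in wild-type vehicle males, with no overlap. The part of bulb tissue in this loss was not tested. Spry4 lost its call without fluoxetine female 4 (-0.35, 0.0553) or fluoxetine male 4 (-0.30, 0.0875). Wild-type Dusp6 also lost it, at -0.40 to -0.46, without any 1 of fluoxetine females 1, 3, 4 and 5, fluoxetine males 1 to 4, vehicle females 2, 3 and 5, or vehicle males 1, 4 and 5, with limma adjusted p values up to 0.106. With 1 wild-type library left out, the number of all genes called ran from 13 to 376, against 80 with every library.

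Several immediate early transcription factor genes fell with fluoxetine over both genotypes, where 3.09% of all genes were called and 1.64% were lower. Of 20 tested transcriptional targets of ERK, 6 fell and 0 rose (median -0.18): Junb (-0.79 ± 0.12), Egr2 (-1.05 ± 0.16), Egr4 (-0.51 ± 0.09), Fos (-0.93 ± 0.16), Egr1 (-0.51 ± 0.09) and Fosl2 (-0.58 ± 0.12). Of 20 immediate early genes, 9 of which are also in that list, 12 fell and 0 rose (median -0.55), among them Arc (-1.08 ± 0.16), Nr4a3 (-0.88 ± 0.11) and Nr4a1 (-0.81 ± 0.12). Of 32 genes of the Ras, Raf, MEK and ERK core, 1 rose, the scaffold Ksr1 (0.26 ± 0.06), and 0 fell (median -0.03), a share near that of all genes. Of 13 kinases and transcription factors downstream of ERK, 0 rose and 2 fell, Srf (-0.14 ± 0.03) and Elk3 (-0.14 ± 0.04). Of 13 other negative regulators (further DUSP, SPRY and SPRED genes, Rasa2, Rasa3 and others), 0 rose and 2 fell, Dusp8 (-0.07 ± 0.02) and Dusp3 (-0.16 ± 0.05). None of 14 growth factor receptors or 19 ligands was called.

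The summed level of the 20 immediate early genes ran from 21594 to 48135 normalised counts in heterozygous fluoxetine mice and from 29861 to 49363 in heterozygous vehicle mice. It ran from 22450 to 34052 in wild-type fluoxetine mice and from 30220.0 to 46159 in wild-type vehicle mice. Among heterozygous vehicle mice the list mean lay 0.57 to 0.87 log2 units above the average library in replicates 3 to 5 of both sexes and between -0.10 and 0.10 in replicates 1 and 2. Dusp1 followed the same division there, with 806 to 1038 normalised counts in replicates 3 to 5 and 449.8 to 718 in replicates 1 and 2. Over both genotypes, where 3.09% of all genes were called, 4 of 15 glucocorticoid-induced genes rose and 2 fell. Among them Hif3a (0.67 ± 0.09), Zbtb16 (0.37 ± 0.07) and Fkbp5 (0.64 ± 0.12) were higher and Per1 (-0.29 ± 0.06) lower. Within genotypes 4 rose and 1 fell in heterozygous mice, and 1 rose and 1 fell in wild-type mice. Their list mean averaged 0.22 in heterozygous fluoxetine mice (1.38 and 0.45 in males 3 and 4) and -0.07 in heterozygous vehicle mice. In wild-type mice it averaged -0.001 under fluoxetine and -0.08 under vehicle. Of 10 endothelial and mural markers, 2 fell, Kdr (-0.22 ± 0.05) and Tek (-0.21 ± 0.06), and 0 rose. The part of these shifts in the changes of the feedback genes was not tested.

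In heterozygous mice the fluoxetine effect was next compared between the sexes, a contrast in which 34.3% of all genes were called and 19% were lower. Dusp14 and Spry2 were called, 2 of 9, a share near that of all genes. Both effects were lower in females than in males. Dusp14 in fluoxetine females had 1431, 1549, 1534, 1622 and 1477 normalised counts, against 1963, 1756, 1852, 1996 and 1903 in vehicle females. In fluoxetine males it had 1979, 1611, 2963, 2215 and 1706, against 1942, 1589, 1476, 1505 and 1636 in vehicle males. The female groups did not overlap, and in males the 2 highest values belonged to fluoxetine males 3 and 4, the libraries with high glucocorticoid-induced genes. The female minus male difference in effect was -0.65 ± 0.14 for Dusp14 (limma adjusted p = 0.00085).

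Spry2 in fluoxetine females had 655, 729, 758, 866 and 804 normalised counts, against 894, 740.4, 955, 999 and 886 in vehicle females. In fluoxetine males it had 822, 942, 834, 1106 and 950.0, against 909.8, 814, 593, 666 and 765 in vehicle males. Fluoxetine values were low in females and high in males, with overlap in both sexes, and the difference in effect was -0.55 ± 0.14 (limma adjusted p = 0.00293).

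**Figure D3:**
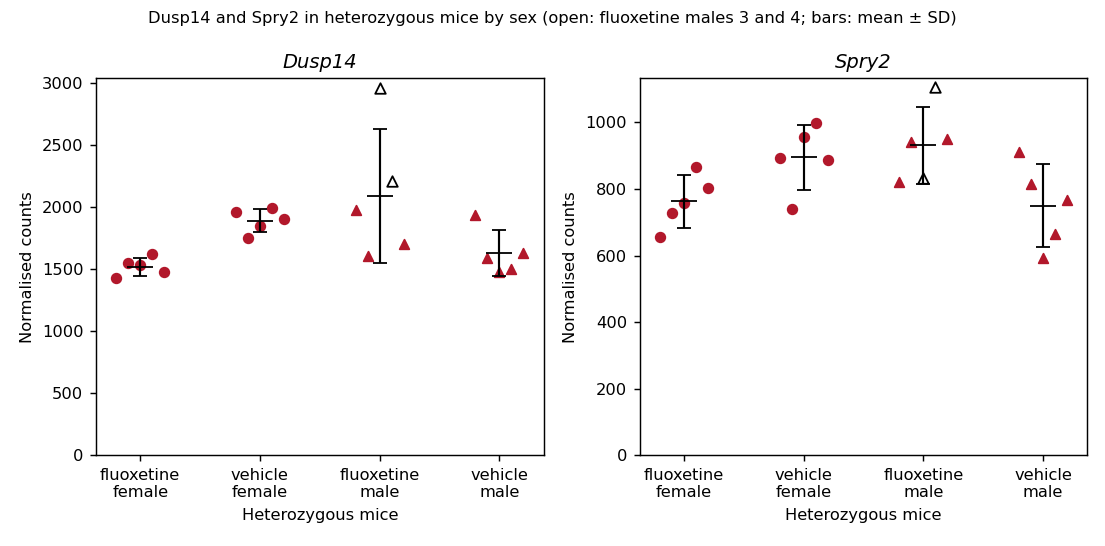
Normalised counts of Dusp14 and Spry2 in 20 heterozygous mice, 5 per group, by drug and sex, with bars for the mean ± SD and open symbols for fluoxetine males 3 and 4. Dusp14 averages 1522 in fluoxetine and 1894 in vehicle females, against 2095 in fluoxetine and 1629.6 in vehicle males.

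Both calls were kept without fluoxetine males 3 and 4 (Dusp14 -0.43, limma adjusted p = 0.0162; Spry2 -0.51, 0.0163) but not with the bulb marker mean as covariate (-0.32, 0.125; -0.30, 0.221). In this contrast 15 of 16 olfactory bulb markers and 0 of 10 excitatory neuron markers were called higher, and 0 and 8 lower, with list medians of 3.29 and -0.74. Their part in the result was not tested.

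Between genotypes under vehicle, Dusp4 and Dusp5 were higher in heterozygous mice, 2 of 9 where 13.1% of all genes were called and 6.03% were higher. The other 7 did not pass. The median log2 fold change of the 9 was -0.13, and that of all genes was 0.00. Dusp4 in heterozygous females had 175, 314, 253, 216 and 261 normalised counts, against 293, 220.1, 169, 345 and 226 in wild-type females. In males it had 246, 256, 424, 629.5 and 399 in heterozygous mice, against 190.4, 143, 182, 181 and 219 in wild-type mice. The male groups did not overlap, and the female groups did. The change over both sexes was 0.50 ± 0.17 (limma adjusted p = 0.0429).

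Dusp5 in heterozygous females had 288, 491, 469, 266 and 451 normalised counts, against 418, 271, 254, 522 and 249 in wild-type females. Heterozygous males had 259.5, 308, 687, 667 and 593, against 262, 209, 201, 218 and 261 in wild-type males. The highest values were those of heterozygous males 3, 4 and 5, and heterozygous male 1 lay within the wild-type range. The change was 0.62 ± 0.20 (limma adjusted p = 0.0392), and 8 of 10 heterozygous mice were above the wild-type mean of their sex for each gene.

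Olfactory bulb markers also differed between genotypes under vehicle. Of 16, 13 were higher and 0 lower in heterozygous vehicle mice, with a median of 1.42, and 5 of 10 excitatory neuron markers were lower (median -0.28). In vehicle males the bulb list mean was -0.12, 0.97, 2.19, 2.14 and 1.60 log2 units from the average library in heterozygous mice 1 to 5, against -0.54, -2.37, -2.05, -2.14 and -1.87 in wild-type mice 1 to 5. In vehicle females it was -1.07, 1.23, 0.69, -2.27 and 0.45 in heterozygous mice, against 1.06, 0.30, -1.40, 1.51 and -2.02 in wild-type mice. The male groups did not overlap and the female groups did, as for Dusp4. With that mean as a covariate, neither gene was called, with changes of 0.25 for Dusp4 (limma adjusted p = 0.786) and 0.12 for Dusp5 (limma adjusted p = 0.884). Since the bulb means of the genotypes did not overlap in males, the covariate cannot tell bulb tissue from genotype there. The part of bulb tissue in these changes was not tested.

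**Figure D4:**
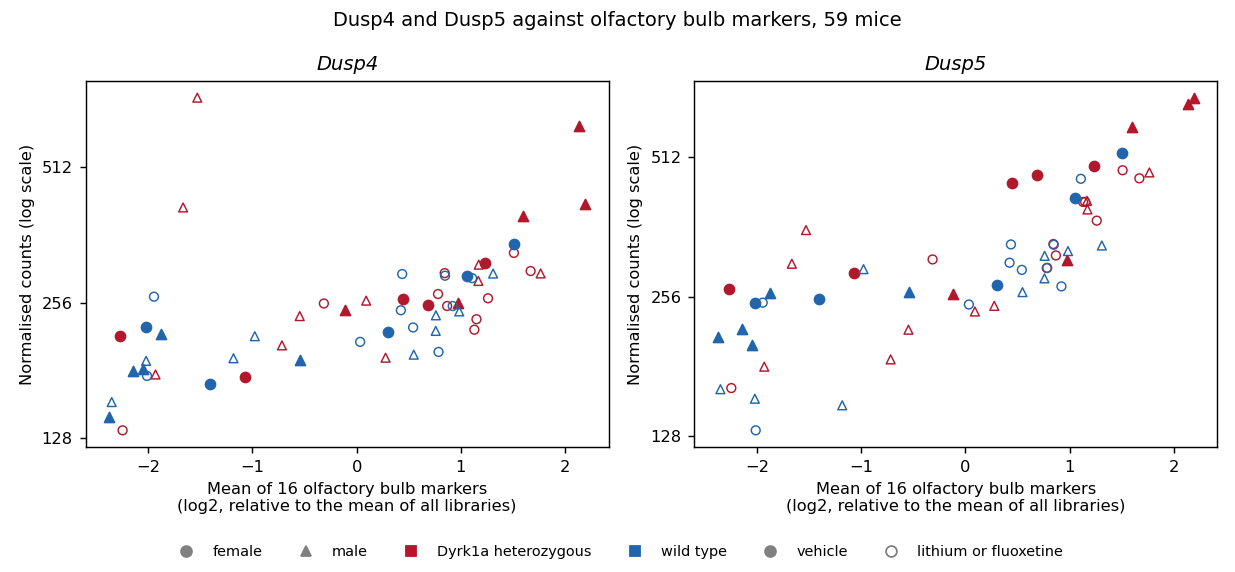
Normalised counts of Dusp4 and Dusp5 (log2 axis) against the mean of 16 olfactory bulb markers (log2 units from the average library) in 59 mice. Red symbols are heterozygous and blue wild-type mice, filled symbols vehicle and open symbols lithium or fluoxetine, circles females and triangles males. The 3 highest Dusp5 values, 687, 667 and 593, belong to heterozygous vehicle males 3, 4 and 5 with bulb means of 2.19, 2.14 and 1.60. Heterozygous fluoxetine males 3 and 4 have Dusp4 at 729 and 416 with bulb means of -1.53 and -1.66, and heterozygous lithium female 4 has Dusp4 at 223 with a bulb mean of 1.13.

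The calls were also lost, at unchanged changes of 0.50 ± 0.16 for Dusp4 and 0.62 ± 0.19 for Dusp5, when only the 4 vehicle groups entered the fit (limma adjusted p = 0.0782 and 0.0739), and without any 1 of 12 of the 20 vehicle libraries. These were heterozygous females 2, 3 and 5, heterozygous males 3, 4 and 5, wild-type females 2, 3 and 5, and wild-type males 2, 3 and 4. Over all 20 such fits Dusp4 lay between 0.40 and 0.57 (limma adjusted p 0.0107 to 0.128) and Dusp5 between 0.55 and 0.72 (0.00722 to 0.117). The number of all genes called ran from 29 to 5058 over these 20 fits, against 2353 with every library. The calls of the 2 genes therefore also depend on an adjustment shared by all genes.

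The genotype effect on Dusp4 differed between the sexes, with a female minus male difference of -1.04 ± 0.33 (limma adjusted p = 0.029). It was the 1 member of 9 called in that contrast, where 16% of all genes were called and 6.26% were lower, a share near that of all genes. All 16 olfactory bulb markers were called lower there (median -3.04) and 8 of 10 excitatory neuron markers were called higher (median 0.78). Their part in the result was not tested. With the bulb covariate the Dusp4 difference was -0.53 (limma adjusted p = 0.985), and with only the 4 vehicle groups in the fit it was the same size (-1.04 ± 0.33) with a limma adjusted p of 0.0734. It also lost its call without any 1 of heterozygous females 1 and 4, heterozygous males 3 and 4, wild-type females 1 and 4, or wild-type male 2, with values of -1.18 to -0.85 and limma adjusted p values of 0.00732 to 0.0998 over the 20 fits. The number of all genes called ran from 0 to 4961 over these fits, against 2857 with every library. Spry2 (0.37 ± 0.14, limma adjusted p = 0.0614), Dusp6 (0.45 ± 0.21, 0.125) and Dusp5 (-0.80 ± 0.40, 0.159) were not called. With array weights, for which the share of all genes called is not given, limma called Dusp5 (-0.98, adjusted p = 0.0155) and Spry2 (0.36, 0.0069). Spry2 was also called without heterozygous fluoxetine males 3 and 4 (0.37, limma adjusted p = 0.0441). The Dusp5 difference changed sign, uncalled, under another setting.

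Spred1 and Spred2, the membrane-bound partners of neurofibromin, had lower averages in heterozygous mice. Spred1 had a lowest value of 4368, a median of 5195 and a highest of 6678 normalised counts in heterozygous vehicle mice, against 5653, 5988 and 7031 in wild-type vehicle mice. Spred2 had 2379, 2836 and 3499.9 in heterozygous vehicle mice, against 2522, 3108 and 3662 in wild-type vehicle mice. The ranges overlapped for both. Under vehicle the changes were -0.21 ± 0.08 for Spred1 (limma adjusted p = 0.0562) and -0.13 ± 0.07 for Spred2 (0.212), and neither was called. Spry2 (-0.16 ± 0.07, limma adjusted p = 0.1), Spry4 (-0.13 ± 0.08, 0.222), Dusp6 (-0.15 ± 0.10, 0.329), Dusp14 (-0.05 ± 0.07, 0.679) and Dusp1 (0.18 ± 0.16, 0.451) did not pass either. With array weights, for which the share of all genes called is not given, limma called Spred1 (-0.31, adjusted p = 0.000164), Spred2 (-0.21, 0.00586) and Dusp1 (0.38, 0.0213). Spred1 was also called with a filter of 100 normalised counts (-0.21, limma adjusted p = 0.0465) and without heterozygous fluoxetine males 3 and 4 (-0.21, 0.0328).

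Averaged over fluoxetine, lithium and vehicle, 3 of 9 members were called between genotypes, where 21.4% of all genes were, 8.97% higher and 12.4% lower. Dusp4 (0.31 ± 0.10, limma adjusted p = 0.0224) and Dusp5 (0.37 ± 0.12, 0.0229) were higher and Spred2 (-0.12 ± 0.04, 0.0383) was lower in heterozygous mice, while Spred1 (-0.12 ± 0.04, 0.0522) was not called. Spred1 was called with array weights (-0.14, limma adjusted p = 0.00249), a filter of 100 (-0.12, 0.044) and a block per replicate number (-0.11, 0.0463). With the bulb covariate none was called: Dusp4 was 0.20 (limma adjusted p = 0.199), Dusp5 0.15 (0.234) and Spred2 -0.07 (0.284). In this comparison 2 of 16 bulb markers were called higher (median 0.65), and 5 of 10 excitatory neuron markers (median -0.16) and 4 of 10 interneuron markers (median -0.08, 1 higher) were called lower. Their part in the result was not tested. Spred2 lost its call without any 1 of 20 of the 59 libraries, with values of -0.13 to -0.10 and limma adjusted p values of 0.0122 to 0.0643 over all 59 fits. Those 20 were, under fluoxetine, heterozygous females 1 and 2, heterozygous male 2, wild-type female 2 and wild-type male 4. Under lithium they were heterozygous females 4 and 5, heterozygous males 1 and 4, wild-type female 4 and wild-type male 3. Under vehicle they were heterozygous females 3 and 5, heterozygous males 3, 4 and 5, wild-type females 3 and 5, and wild-type males 2 and 5. The number of all genes called ran from 2547 to 5202 over the 59 fits, against 3823 with every library.

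Within drugged mice no member was called between genotypes by limma, where 0.0112% of all genes were called under fluoxetine and 0.0112% under lithium. At an unadjusted p under 0.05 there were 0 members under fluoxetine, where 14.7% of all genes were. Under lithium 18.3% of all genes were, and there were 2 of 9 members, a share near that of all genes. These 2 were Dusp5 (0.47 ± 0.20, limma adjusted p = 0.243) and Spred2 (-0.19 ± 0.07, 0.233), and edgeR and DESeq2 called 0 under either drug. With array weights, for which the share of all genes called is not given, limma called both Dusp5 and Spred2 under lithium (Dusp5 0.56, adjusted p = 0.0156, and Spred2 -0.23, 0.0132). Spred2 averaged 2844 ± 265 in heterozygous and 2909.6 ± 229 in wild-type fluoxetine mice (SD, n = 10 and 9), and 2811 ± 388 in heterozygous and 3196 ± 247 in wild-type lithium mice (SD, n = 10 each).

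In the rest of the pathway, receptors and their ligands held calls between genotypes under vehicle, where 13.1% of all genes were called. Of 14 receptors, 5 rose and 0 fell: Fgfr1 (0.33 ± 0.11), Fgfr2 (0.37 ± 0.12), Erbb2 (0.50 ± 0.15), Erbb3 (0.49 ± 0.16) and Igf1r (0.13 ± 0.04), with a list median of -0.00. Of 19 ligands, 2 rose and 3 fell, among them Egf (0.69 ± 0.22) and neurotrophin-3, Ntf3 (-0.94 ± 0.24). Of 32 core genes, 3 rose and 3 fell (median -0.04), including the adaptor Gab1 (0.21 ± 0.07), the scaffold Cnksr2 (-0.39 ± 0.12) and Nras (-0.18 ± 0.06). Of 20 transcriptional targets of ERK, 2 rose, Fosl2 (0.69 ± 0.17) and Btg2 (0.62 ± 0.21), and 1 fell, the ephrin receptor Epha4 (-0.35 ± 0.12). Of 20 immediate early genes, 4 rose and 0 fell (median 0.25), adding Fosb (0.90 ± 0.24) and Nr4a2 (0.61 ± 0.19). Of the 13 other negative regulators, 2 rose, the Ras GTPase-activating proteins Rasa2 (0.34 ± 0.12) and Rasa3 (0.48 ± 0.12). The shares called among core genes, transcriptional targets of ERK and other negative regulators were near that of all genes. The part of the olfactory bulb markers in the counts of these lists was not tested.

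Lithium, a mood stabiliser that inhibits GSK-3, was compared with the same vehicle mice, so the lithium, fluoxetine and vehicle genotype comparisons are not independent. Averaged over both genotypes limma called 0 of 9 members, where 2.12% of all genes were called. At an unadjusted p under 0.05 there were 3, where 13.5% of all genes were. With array weights, for which the share of all genes is not given, limma called these 3 (adjusted p 0.038 to 0.0428), and edgeR and DESeq2 called 0. Dusp1 had a lowest value of 449.1, a median of 622 and a highest of 1061 normalised counts in heterozygous lithium mice, against 449.8, 877 and 1038 in heterozygous vehicle mice. In wild-type mice it had 361, 538 and 871 under lithium, against 528, 704 and 899.7 under vehicle. Dusp1 lay below the vehicle mean of its sex in 8 of 10 lithium mice of each genotype, with overlapping ranges and a change of -0.30 ± 0.11 (limma adjusted p = 0.186).

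The other 2 were Dusp5 (-0.37 ± 0.14, limma adjusted p = 0.193) and Spry4 (-0.16 ± 0.05, 0.131). Dusp5 averaged 330.1 ± 118 normalised counts in heterozygous lithium mice, against 448 ± 164 in heterozygous vehicle mice, and 236 ± 79.1 in wild-type lithium mice, against 287 ± 102 in wild-type vehicle mice (SD, n = 10 each). Both genes were below the vehicle mean of their sex in 7 of 10 heterozygous and 8 of 10 wild-type lithium mice. With the bulb covariate Dusp5 was called, at -0.34 (limma adjusted p = 0.0108).

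**Figure D5:**
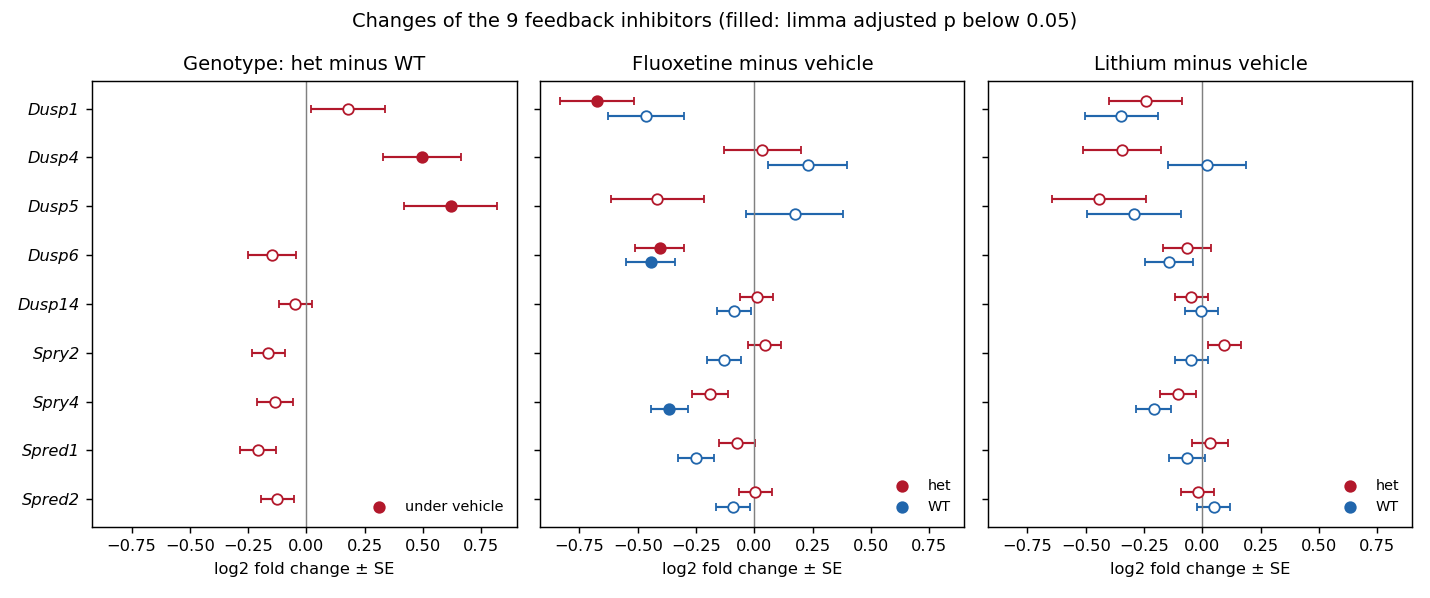
Log2 fold changes (value + 1, points ± SE) of the 9 genes for heterozygous minus wild-type mice under vehicle, and for fluoxetine or lithium minus vehicle in each genotype, with filled points for an adjusted p under 0.05. Dusp4 and Dusp5 lie right of 0 for genotype (0.50 and 0.62), Dusp1 and Dusp6 left of 0 for fluoxetine in both genotypes, and no lithium point is filled.

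Within genotypes limma called no member for lithium, with 0.497% of all genes called in heterozygous and 0.162% in wild-type mice. Each had 2 members at an unadjusted p under 0.05, where 10.4% of all genes were in heterozygous and 6.86% in wild-type mice. These were Dusp4 (-0.34 ± 0.17) and Dusp5 (-0.44 ± 0.20) in heterozygous mice, and Spry4 (-0.21 ± 0.08) and Dusp1 (-0.35 ± 0.16) in wild-type mice. Neither the difference of the lithium effect between genotypes (0% of all genes called) nor that between the sexes of heterozygous mice (3.07%) called a member. At an unadjusted p under 0.05 there were 0 members in either, where 2.78% and 25% of all genes were, and edgeR and DESeq2 called 0. With array weights limma called 4 in the contrast between the sexes (female minus male): Dusp5 (0.93, adjusted p = 0.0215, against 0.50 unweighted), Dusp4 (0.66, 0.0208, against 0.52), Spry2 (-0.34, 0.0118, against -0.21) and Dusp14 (-0.25, 0.0355, against -0.17). The 3.07% is the share of all genes in the unweighted fit, and the share with array weights is not given.

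Some immediate early genes fell with lithium over both genotypes, where 2.12% of all genes were called. Whether the members differed from these genes was not tested. Of 20 immediate early genes, 11 fell and 0 rose (median -0.41), such as Junb (-0.60 ± 0.12), Nr4a3 (-0.60 ± 0.11), Nr4a2 (-0.67 ± 0.14) and Nr4a1 (-0.53 ± 0.11). Of 20 transcriptional targets of ERK, 4 fell and 0 rose (median -0.21): Junb, Fosl2 (-0.60 ± 0.12), Egr2 (-0.71 ± 0.16) and Fos (-0.55 ± 0.16). Of 13 genes downstream of ERK 2 fell, Srf (-0.14 ± 0.03) and Elk3 (-0.15 ± 0.04), and of 14 receptors 1 rose, Igf1r (0.11 ± 0.03). None of the 32 core genes, 19 ligands or 13 other negative regulators was called.

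Between females and males, averaged over all other groups, limma called 0 of 9 members (0.156% of all genes), with 0 by edgeR or DESeq2. At an unadjusted p under 0.05 there was 1, Dusp1 (0.19 ± 0.09, limma adjusted p = 0.669), where 7.4% of all genes were. When the 6 combinations of genotype and drug were ordered by mean level for each gene, 1 of the 45 steps between neighbours exceeded the larger of the 2 SDs. That step was Spry4, with 369 ± 30.3 normalised counts in heterozygous vehicle mice and 405 ± 31.1 in wild-type vehicle mice (SD, n = 10 each). For every other neighbouring pair the means lay within the spread between mice.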

How the data were processed

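RNA of prefrontal cortex from 59 mice was sequenced. The authors deposited a signal per gene, counts divided by a size factor of each library (normalised counts). The submitters' processing notes name Salmon 0.11.2, R 3.6.0, DESeq2 1.19.11 and GRCm38, with no role or order. All values were whole multiples (100% within 0.01 counts) of a step per library, and the recovered totals ranged from 24391022 to 33842466. Groups came from the labels. log2(value + 1) of 17901 genes (at least 10 in 4 or more libraries) was fitted with limma 3.58.1 (R 4.3.3), with trended variance, 12 group means and 47 residual degrees of freedom. There were 16 comparisons, weighting the sexes equally, with p-values adjusted by Benjamini-Hochberg over all genes. p-values reflect variation among these animals. edgeR 4.0.16 and DESeq2 1.42.0 on the recovered counts were alternatives, as were other pseudocounts, filters, scalings, weights, fewer groups, a replicate block, an olfactory bulb covariate, and leaving out libraries. The method was checked on simulated data. Members, lists, the covariate and the leaving out of heterozygous fluoxetine males 3 and 4 were chosen with earlier results of these data known. All 9 members are named, and other genes are the 3 most correlated with each member or called genes of the pathway lists. Promoter sequences are RefSeq's (GRCm38.p6).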

Additional observations from a re-analysis of the deposited data

Results flagged for a closer look

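Dusp5 in wild-type fluoxetine female 5 was 459.4 normalised counts, against 246.3 to 303.0 in the other 4 females of that group, and stood far from them by Dixon's ratio (0.734). It was the 1 such library among 108 combinations of group and gene, and chance marks about 1 in 20 groups.

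For 3 genes an effect differed between females and males by a limma test of the difference itself. The heterozygous minus wild-type effect on Dusp4 under vehicle differed by -1.04 (female minus male), where 16% of all genes were called. The fluoxetine effect in heterozygous mice differed by -0.65 for Dusp14 and by -0.55 for Spry2 (female minus male), where 34.3% of all genes were called. None of these 3 was called with the olfactory bulb covariate, and the part of bulb tissue in them was not tested.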

How the results depend on the processing

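Counts are of members called out of 9, without the share of all genes called under each setting. Shares of all genes in the Results are those of the unweighted fit to all 59 libraries. Under the replicate block, 4 members were called between genotypes over all treatments, against 3 without the block; every other count stayed the same. Mice with the same replicate number did not run together throughout: 0 of 66 pairs of groups had every r over 0.1 (lowest r -0.591). That check cannot exclude a structure by replicate number within some groups, such as the division of heterozygous vehicle mice described above.

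With the olfactory bulb covariate, with or without heterozygous fluoxetine males 3 and 4, counts were 0 for genotype under vehicle, genotype over all treatments, the sex difference of the genotype effect and the sex difference of the fluoxetine effect in heterozygous mice, 4 for fluoxetine over both genotypes, 1 for fluoxetine in wild-type mice and 1 for lithium over both genotypes. With array weights they were 3 for the genotype difference of the fluoxetine effect, 3 and 4 for fluoxetine in heterozygous and wild-type mice, 5 for the sex difference of the fluoxetine effect, 2 for genotype under lithium, 4 over all treatments and 5 under vehicle, 3 for its sex difference, 4 for the sex difference of the lithium effect and 3 for lithium over both genotypes. With only the groups compared they were 0 for fluoxetine in heterozygous and 4 in wild-type mice, 0 for genotype under vehicle and 0 for its sex difference. Without heterozygous fluoxetine males 3 and 4 they were 1 for fluoxetine in heterozygous mice, 3 in wild-type mice, 3 for its sex difference, 3 for genotype under vehicle and 2 for its sex difference. A filter of 100 gave 3 for genotype under vehicle and 4 over all treatments, and quantile normalization gave 2 over all treatments.

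Leaving out each library in turn gave 0 to 4 members for genotype under vehicle, 2 to 4 over all treatments, 0 to 2 for its sex difference, 1 to 2 for fluoxetine in heterozygous mice, 0 to 2 in wild-type mice, 3 to 4 over both genotypes, 2 to 3 for its sex difference, and 0 in the other 9 comparisons. The number of all genes called moved too. It was 29 to 5058 for genotype under vehicle, 2547 to 5202 over all treatments and 0 to 4961 for its sex difference. For fluoxetine it was 239 to 2475 in heterozygous mice, 13 to 376 in wild-type mice, 358 to 1316 over both genotypes and 4690 to 7247 for its sex difference.

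Of 1872 member values under 13 settings, 0 reversed among called values, 38 gained and 26 lost a call, and 125 uncalled values changed sign. The values that changed sign were not all near 0. The largest was -0.80 before the change, the sex difference of the genotype effect on Dusp5 under vehicle. The causes were not tested. The lowest value of a member was 132 normalised counts. The number of mice, 4 or 5 per group, limits the precision of all comparisons.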
